A study of Mus musculus with 30 samples.

Results

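Bone morphogenetic proteins (BMPs) are secreted ligands that bring together type I and type II serine/threonine kinase receptors, and the activated receptors phosphorylate Smad proteins that move into the nucleus. Secreted antagonists bind the ligands and keep them from the receptors, so that signaling depends on all of these components. In bone marrow the pathway is best known for driving mesenchymal stem cells (MSCs) toward the osteoblast. Chromatin accessibility was examined here at 10 genes of the pathway, namely the ligands Bmp2, Bmp4 and Bmp6, the type I receptors Bmpr1a, Bmpr1b and Acvr1, the type II receptor Bmpr2, and the antagonists Nog, Grem1 and Chrd. A window is a consensus ATAC-seq region of the deposited count tables, and it was assigned to a gene when the nearest protein-coding transcription start site (TSS) within 100 kb belonged to that gene. This gave 260 of 305931 windows in the 24 h table and 356 of 369846 windows in the 4 h table. The genes were chosen by name with earlier results of these data known, and the windows were peaks called on the signal of these libraries, so that the presence of a window at a gene is a description and not a result.

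The libraries came from MSCs of male C57BL/6J mouse bone marrow and from NIH3T3, an established embryonic fibroblast line, with 50000 cells per library. MSCs were left untreated (control), treated with CK666, an inhibitor of the Arp2/3 complex that branches actin filaments, or treated with cytochalasin D (CytoD), which blocks actin polymerization, and were collected after 24 h. In a separate experiment MSCs and NIH3T3 cells were left untreated or treated with CK666 for 4 h. Each of these 7 groups had 3 libraries, 21 of the 30 in the series, and the 9 libraries of siRNA-transfected MSCs were not used. The NIH3T3 libraries carry the strain and sex labels of the MSCs, although the line is known to derive from NIH Swiss embryos. NIH3T3 is 1 line, and per the study the MSCs were a primary cell line made from the marrow of several mice. MSC libraries are therefore not known to stand for separate mice. No source says that replicates were separate cultures, so p-values measure only the spread between these libraries.

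Depth was 14071301 to 22352180 counts per library at 24 h, 29239381 to 34979833 for MSCs at 4 h and 14496058 to 27866363 for NIH3T3. Levels are given as CPM, the counts of a window scaled to a common library size, and 1 CPM stood for 14.3 to 31.8 counts. A level averages over all cells of a library, so that fewer cells with an open window and less opening per cell cannot be told apart. Replicate 1 of NIH3T3 treated with CK666 stood apart, with the fewest counts of its table and rank correlations of 0.880 and 0.884 with its replicates, against 0.917 to 0.952 for the other pairs of the 4 h table. At 24 h control replicate 1, shared by both treatment comparisons, had 14122298 counts, fewer than the other controls (22352180 and 21651442). Its rank correlations with them were 0.887 and 0.887, against 0.916 between those 2, while the CytoD pairs were at 0.872 to 0.886. Of 14 stromal markers, 9 had a TSS window at 24 h and 11 at 4 h, with a median of 4.50 CPM per kb in 24 h controls, 4.49 in 4 h MSC controls and 4.84 in NIH3T3 controls. Of 6 haematopoietic markers, 2 had a TSS window, and Ptprc, the pan-leukocyte marker, had none at 24 h. The median over those that did was 2.81 CPM per kb in 24 h MSC controls, 3.58 in 4 h MSC controls and 4.51 in NIH3T3 controls, so the haematopoietic windows were not lower in the fibroblast line. Those 2, Adgre1 and Csf1r, also differed between treatments. Adgre1 was at 1.13 to 1.71 CPM per kb in 24 h controls, 1.63 to 2.74 with CK666 and 3.58 to 5.21 with CytoD, above every control. Csf1r was at 3.39 to 5.29 in 24 h controls, 1.79 to 2.88 with CK666 and 1.95 to 3.96 with CytoD, and at 4 h in MSCs at 4.69 to 6.02 in controls and 2.75 to 4.63 with CK666. At 4 h Adgre1 overlapped between treated and control MSCs (1.45 to 2.04 in controls and 1.43 to 1.77 with CK666). The part of these cells in the changes at the BMP genes was not tested. Of 4 endothelial markers, 2 had a TSS window, with medians of 2.41, 2.52 and 1.54 CPM per kb.

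Sequences (GRCm38, which is mm10, plus strand, read from RefSeq's assembly of that build) are shown as the central 300 bases of 8 windows on which the results turn. Capitals mark letters that match 1 of 6 motifs on either strand, which are TGANTCA (AP-1), GGAATG (TEAD), TTGCNNAA (C/EBP), TGTGGTT (RUNX), GGCGCC (SMAD) and the CArG box bound by SRF. The first 2 lie upstream of Bmpr1b in the stretch that lost accessibility with CK666, and the next is the Bmp4 window that was lower with both inhibitors.
Bmpr1b chr3:142233402-142233701: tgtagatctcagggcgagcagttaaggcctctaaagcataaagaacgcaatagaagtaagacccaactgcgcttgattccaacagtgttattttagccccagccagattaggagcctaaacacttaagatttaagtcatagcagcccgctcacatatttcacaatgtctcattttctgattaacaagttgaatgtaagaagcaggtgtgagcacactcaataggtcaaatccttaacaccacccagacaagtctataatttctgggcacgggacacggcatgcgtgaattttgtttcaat
Bmpr1b chr3:142231356-142231655: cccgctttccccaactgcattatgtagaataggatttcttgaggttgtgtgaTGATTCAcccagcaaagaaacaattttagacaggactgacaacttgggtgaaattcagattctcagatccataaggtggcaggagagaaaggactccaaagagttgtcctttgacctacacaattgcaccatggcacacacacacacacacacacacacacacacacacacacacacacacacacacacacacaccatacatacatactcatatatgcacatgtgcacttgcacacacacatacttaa
Bmp4 chr14:46436596-46436895: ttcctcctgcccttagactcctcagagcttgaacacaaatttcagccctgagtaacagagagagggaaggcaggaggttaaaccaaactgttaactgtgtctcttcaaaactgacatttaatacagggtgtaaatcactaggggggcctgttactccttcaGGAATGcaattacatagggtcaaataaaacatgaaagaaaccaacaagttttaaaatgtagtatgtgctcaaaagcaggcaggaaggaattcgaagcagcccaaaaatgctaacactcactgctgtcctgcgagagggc
The following 2 are windows of Bmp4 and Bmp2 that were open in MSCs and nearly closed in NIH3T3.
Bmp4 chr14:46444223-46444522: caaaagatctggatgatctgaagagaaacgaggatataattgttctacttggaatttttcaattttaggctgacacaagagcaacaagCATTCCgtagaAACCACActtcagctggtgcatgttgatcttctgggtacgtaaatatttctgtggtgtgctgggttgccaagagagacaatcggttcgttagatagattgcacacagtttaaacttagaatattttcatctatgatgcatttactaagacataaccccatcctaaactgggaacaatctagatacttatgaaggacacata
Bmp2 chr2:133460860-133461159: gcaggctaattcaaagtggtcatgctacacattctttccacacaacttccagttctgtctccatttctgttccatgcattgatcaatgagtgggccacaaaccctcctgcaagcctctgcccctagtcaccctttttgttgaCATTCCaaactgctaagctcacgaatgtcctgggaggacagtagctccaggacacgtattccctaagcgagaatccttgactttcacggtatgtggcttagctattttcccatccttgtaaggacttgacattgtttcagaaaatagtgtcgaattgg
The last 3 are the Grem1 window that separated CK666 from CytoD, the Acvr1 intron window that opened with CytoD, and the Bmpr1b window that opened with CytoD at 24 h in MSCs and with CK666 at 4 h in NIH3T3.
Grem1 chr2:113764668-113764967: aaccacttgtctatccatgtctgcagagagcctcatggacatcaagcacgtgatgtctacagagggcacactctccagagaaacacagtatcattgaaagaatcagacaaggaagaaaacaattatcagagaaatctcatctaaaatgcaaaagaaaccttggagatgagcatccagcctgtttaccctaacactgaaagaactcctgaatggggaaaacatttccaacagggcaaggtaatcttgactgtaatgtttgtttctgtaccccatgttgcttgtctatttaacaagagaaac
Acvr1 chr2:58521704-58522003: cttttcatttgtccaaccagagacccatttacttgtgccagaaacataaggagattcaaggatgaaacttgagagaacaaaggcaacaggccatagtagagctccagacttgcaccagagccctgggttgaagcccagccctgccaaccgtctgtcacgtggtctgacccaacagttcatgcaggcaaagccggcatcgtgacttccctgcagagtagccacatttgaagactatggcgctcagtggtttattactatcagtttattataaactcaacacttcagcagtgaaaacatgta
Bmpr1b chr3:142186536-142186835: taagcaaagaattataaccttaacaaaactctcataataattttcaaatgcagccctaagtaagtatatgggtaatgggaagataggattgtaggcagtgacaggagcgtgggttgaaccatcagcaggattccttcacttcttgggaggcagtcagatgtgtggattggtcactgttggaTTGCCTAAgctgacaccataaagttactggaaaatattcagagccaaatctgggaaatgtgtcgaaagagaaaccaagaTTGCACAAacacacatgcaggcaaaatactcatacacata
The first sequence and those of Grem1 and Acvr1 hold none of the 6 motifs, the second holds an AP-1 match beside a run of CA repeats, 3 hold a TEAD match (Bmp4 at 46444223 also a RUNX match) and the last holds C/EBP matches. Among the central 300 bases of all windows of the 24 h table, 21% held the AP-1 letters, 19.9% TEAD, 14.2% C/EBP, 10.3% RUNX, 2.66% SMAD and 1.55% a CArG box. The shares among the 260 windows of the BMP genes were 20.4%, 16.2%, 17.3%, 11.9%, 3.46% and 1.54%. In the 4 h table the shares over all windows were 28.7%, 21.3%, 13.4%, 10.3%, 2.42% and 1.63%, and over the 356 windows of the BMP genes 27.8%, 20.2%, 13.5%, 11%, 1.97% and 2.25%.

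For a call, edgeR's quasi-likelihood test over all windows of a table had to give an adjusted p below 0.01 together with a log2 change larger than 1 or smaller than −1. With CK666 at 24 h, 9 of the 253 BMP windows that passed the filter on low counts were called, 2 higher and 7 lower, which is 3.56%. Over all tested windows 2.94% were called, 1.88% higher and 1.06% lower. With CytoD at 24 h, 12 of 253 were called, 5 higher and 7 lower, or 4.74%, against 2.38% of all windows, 0.98% higher and 1.4% lower. Both comparisons share the 3 control libraries. The split of the CytoD calls moved to 8 higher and 5 lower when libraries were scaled by totals only, and to 7 and 6 when a trend with GC content was removed. Over all windows the CytoD calls were 2944 higher and 4207 lower, against 3823 and 2961 with library totals and 3440 and 3435 without the GC trend. In the direct comparison of CK666 with CytoD, 8 windows were higher with CK666 and 2 lower, 3.95% against 3.28% of all windows, and 7 and 4 under either of the other scalings.
At 4 h CK666 lowered 6 of 291 BMP windows in MSCs and raised 0, or 2.06%, against 1.02% of all windows, 0.59% higher and 0.427% lower. In NIH3T3 8 of 325 were higher and 2 lower, or 3.08%, against 3.54% of all windows, 1.87% higher and 1.67% lower. The direction over all windows depended on the processing in NIH3T3, with 6216 higher and 5549 lower by edgeR, 3174 and 4827 by DESeq2, 8022 and 3514 with library totals and 7050 and 4405 without the GC trend. For the fibroblast line the study reports more regions with increased than with decreased accessibility. The DESeq2 counts found here leaned the other way, while those of the MSC treatments against control leaned as in the study. The reason was not tested. All NIH3T3 directions and the interaction given below follow the group labels of the deposited counts. Without replicate 1 of the treated NIH3T3 libraries the calls at BMP windows were 6 higher and 5 lower. The median log2 fold change over the BMP windows beside that over all windows was 0.06 and 0.02 with CK666 at 24 h, 0.08 and 0.04 with CytoD, −0.06 and 0.00 in MSCs at 4 h and 0.01 and 0.04 in NIH3T3. Leaving out 1 library moved the count to 5 with CK666 at 24 h (without CK666 replicate 2), to 8 with CytoD (without control replicate 3), to 6 between the inhibitors (without CK666 replicate 2), to 4 in MSCs at 4 h (without control replicate 3) and to 5 in NIH3T3 (without CK666 replicate 3 or control replicate 2) or 6 (without control replicate 3). With DESeq2 the NIH3T3 count was 6. In the plot of fold changes by gene, Bmpr1b holds 4 of the 7 called losses with CK666 at 24 h, 4 of the 7 with CytoD and 6 of the 6 at 4 h in MSCs. The 4 at 24 h are the same windows in 2 comparisons that share controls. All of these losses lie in a single region upstream of the gene.

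**Figure D1:**
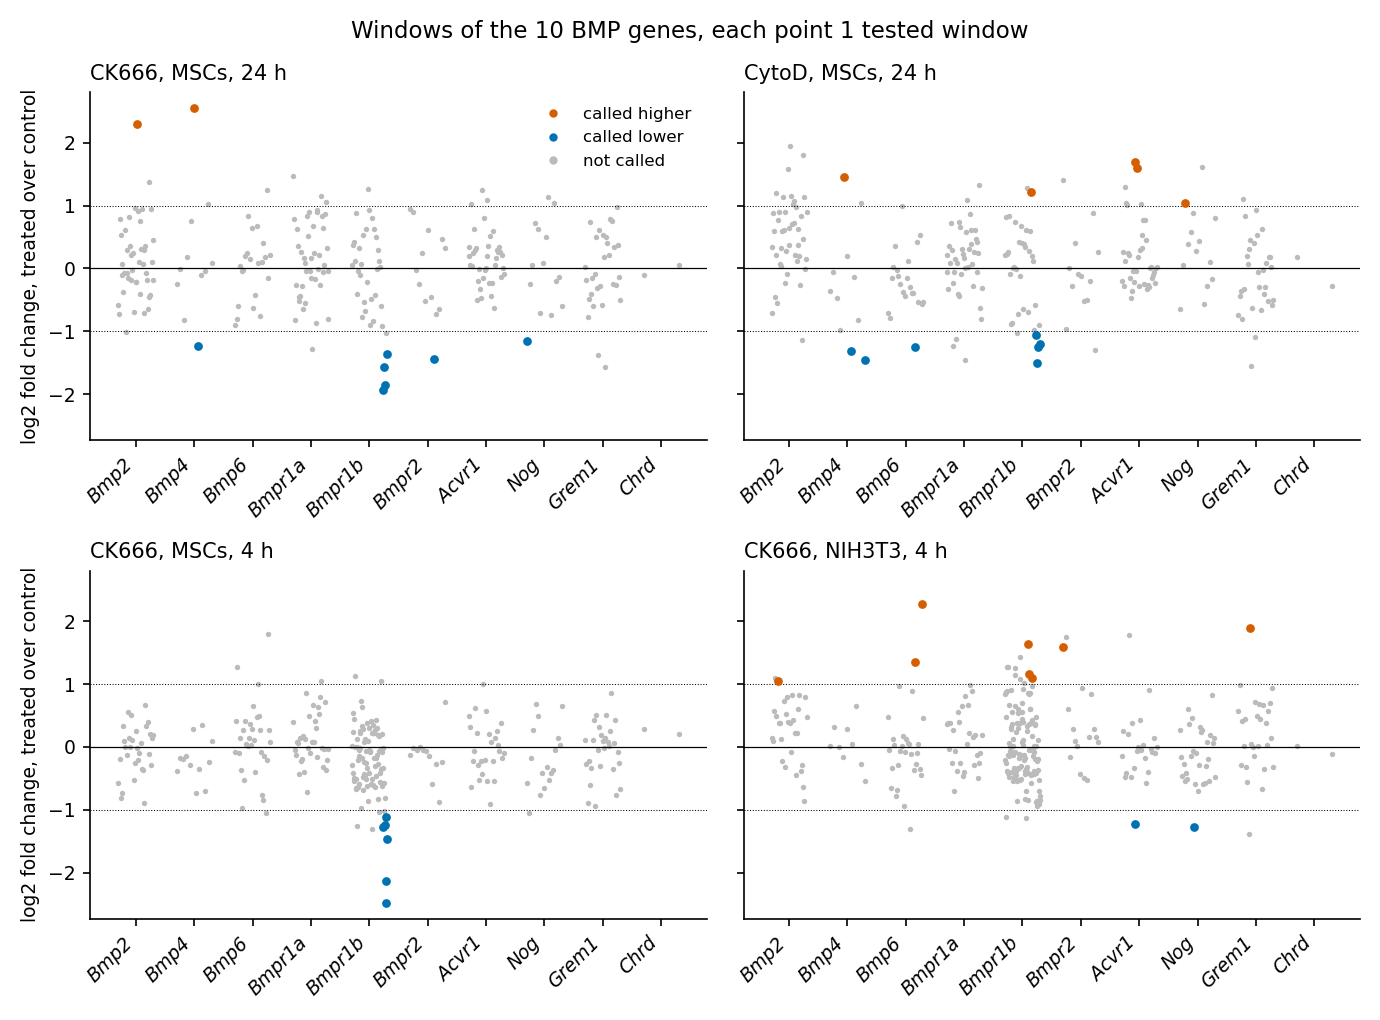
Each point is 1 tested window, placed by gene (and within a gene by position) on the x axis and by its log2 fold change, treated over control, on the y axis, for 4 treatments of 3 against 3 libraries. Colored points were called (adjusted p under 0.01 and beyond the dotted lines at 1 and −1), and the blue points of Bmpr1b include 4 windows with CK666 at 24 h, 4 with CytoD and 6 with CK666 at 4 h in MSCs.

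No start site of these genes was called with a treatment. A TSS window was present for 9 of the 10 genes at 24 h and 8 at 4 h, since no window held the TSS of Bmp4 in either table or that of Bmp6 at 4 h. By edgeR no TSS window of these genes was called in any of the 3 comparisons at 24 h, nor with CK666 at 4 h in MSCs or NIH3T3, and DESeq2 called none either. The number with an unadjusted p under 0.05 was 1 of 10 with CK666 at 24 h, 0 of 10 with CytoD, 2 of 10 between the inhibitors, 1 of 10 in MSCs at 4 h and 3 of 11 in NIH3T3. Over all tested windows it was 62273 of 300323 with CK666 at 24 h, 67771 with CytoD and 71061 between the inhibitors. It was 58588 of 306819 in MSCs at 4 h, 88198 of 331963 in NIH3T3 and 214478 of 368794 between the control groups. Counts of this kind given below are to be read beside these. Per kb of window, the level in 24 h controls was highest at Acvr1 with 29.5 CPM per kb, in a window that also holds the start of the neighboring gene Upp2. Bmpr1a and Chrd followed with 8.61 each, Bmpr2 with 7.39, Bmp2 with 4.42, Grem1 with 3.62, Bmpr1b with 1.78, Nog with 1.61 and Bmp6 with 1.32. The median over all 16718 TSS windows was 7.97. On this scale the libraries of Bmpr1a overlapped with those of Chrd and of Bmpr2, and those of Bmpr1b, Nog and Bmp6 overlapped with each other.

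**Figure D2:**
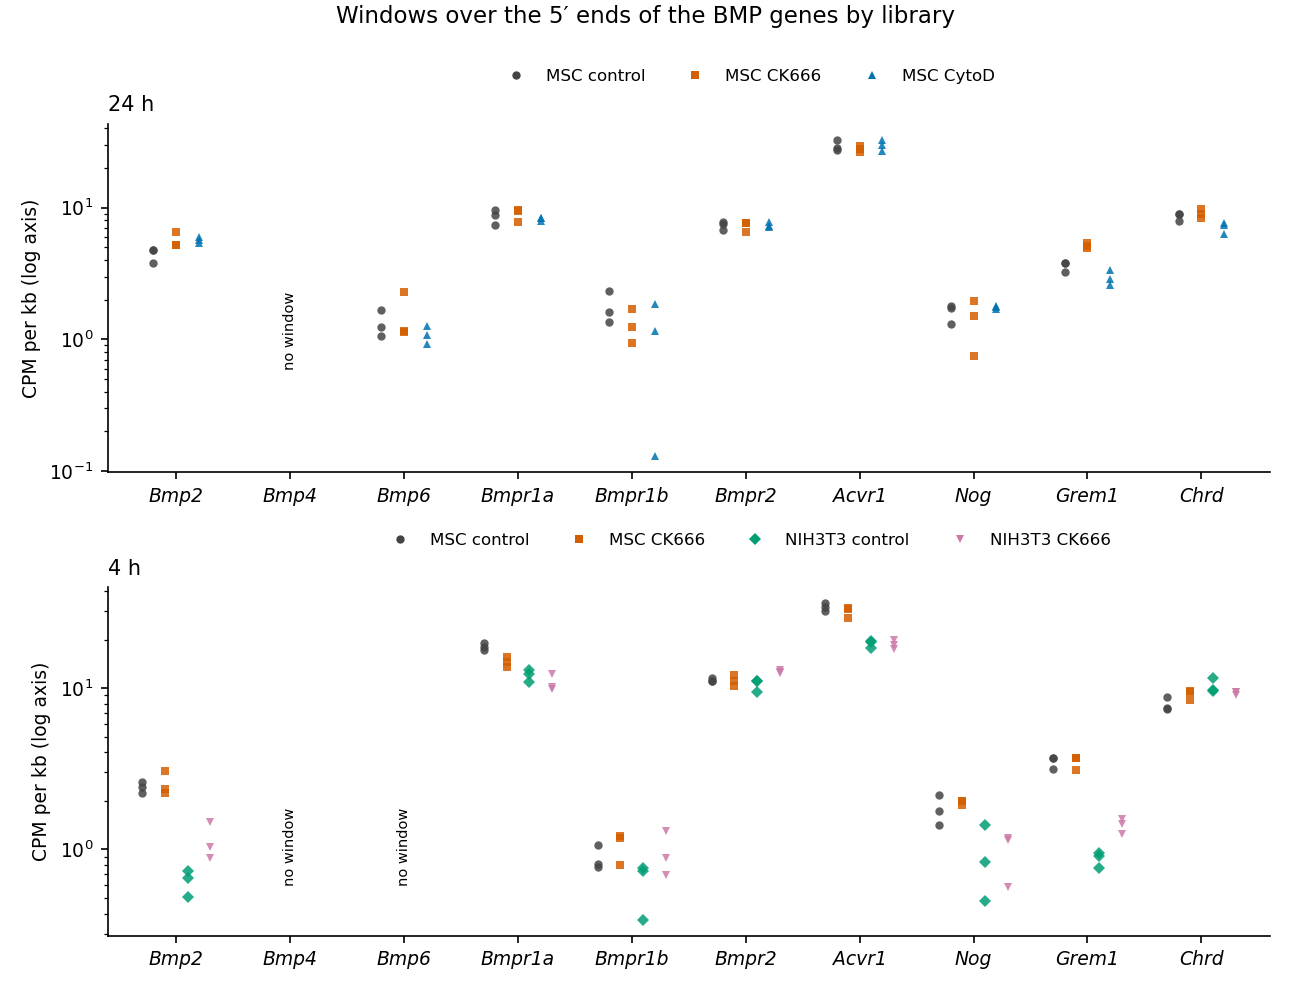
Level of the window over the 5′ end of each gene in every library, in CPM per kb of window on a log axis, at 24 h (3 groups) and at 4 h (4 groups). Points of different treatments overlap or nearly touch at most genes, with Grem1 higher in CK666 than in CytoD at 24 h, and Bmp2 and Grem1 lower in NIH3T3 than in MSCs at 4 h.

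Bmpr1b, the type I receptor that marks chondrogenic and osteogenic condensations (ENSMUSG00000052430, chr3:141837136-142169425, minus strand), held the largest called losses in MSCs. Of its 36 tested windows at 24 h, 4 were called lower with CK666 and 4 with CytoD, the same 4 windows, and 1 other was higher with CytoD. The 4 lie between chr3:142225467 and chr3:142236931, 56.0 to 66.1 kb upstream of the gene's 5′ end, in the intergenic space between Bmpr1b and the 3′ end of its neighbor Pdlim5. They are only 2658 to 12418 bases from the body of Pdlim5, and were assigned to Bmpr1b because its start is the nearest. This stretch of 11.465 kb holds 5 windows and was marked out after its values were seen, so its sums are given without a test. Summed over the 5 windows, the controls had 36.5, 30.04 and 32.6 CPM, the CK666 libraries 11.3, 10.7 and 10.96 CPM and the CytoD libraries 13.4, 12.9 and 12.3 CPM. Every treated library lay below every control by more than the spread within a group. The other 32 Bmpr1b windows summed to 60.8 ± 2.004 CPM in controls, 57.7 ± 4.55 with CK666 and 63.1 ± 2.14 with CytoD (mean ± SD, n = 3).
The widest window, chr3:142227310-142232659, had 21.7, 20.2 and 20.3 CPM in controls, 6.61, 7.41 and 6.99 with CK666 and 8.64, 7.39 and 6.11 with CytoD. It fell 2.95-fold with CK666 (log2 fold change −1.56 ± 0.12 SE, adjusted p = 1.68e-17) and 2.83-fold with CytoD (−1.5 ± 0.13, adjusted p = 8.92e-16). The window chr3:142232748-142234508, which holds the first sequence shown, had 4.97, 3.26 and 4.57 CPM in controls, 1.06, 1.17 and 1.27 with CK666 and 1.23, 1.77 and 2.22 with CytoD. Its log2 fold changes were −1.85 ± 0.27 (adjusted p = 1.93e-07) and −1.26 ± 0.27 (adjusted p = 0.000359).
In both windows every control lay above every treated library, while the CK666 and CytoD libraries overlapped. In chr3:142225467-142227171 controls of 4.41, 2.53 and 3.56 CPM stood above 1.16, 0.938 and 0.583 with CK666 (−1.94 ± 0.31, adjusted p = 9.96e-07) and 1.85, 1.37 and 1.72 with CytoD (−1.06 ± 0.29, adjusted p = 0.00819). In chr3:142235504-142236931 controls of 3.64, 2.48 and 2.65 CPM stood above 1.61, 0.656 and 1.11 with CK666 (−1.36 ± 0.31, adjusted p = 0.00109) and 1.17, 1.11 and 1.43 with CytoD (−1.21 ± 0.32, adjusted p = 0.00546). Both CytoD calls depended on single libraries. Leaving out control replicate 1 or 3 or any CytoD replicate ended the call in each, with log2 values of −1.16 to −0.91 and −1.36 to −1.07, and leaving out CK666 replicate 2 or control replicate 1 ended the CK666 call of the second of them (−1.21 to −1.09). The first CytoD call also ended with DESeq2, with library totals and with the GC trend removed, and the second with library totals. Between CK666 and CytoD edgeR called 0 of the 5 windows, as did DESeq2, with 1 at an unadjusted p under 0.05 and a median log2 difference of −0.15.

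The same place was lower after 4 h of CK666 in separate libraries with their own controls. Between chr3:142221247 and chr3:142236607 (15.361 kb, 11 windows, again marked out after the values were seen) MSC controls summed to 58.8, 57.5 and 57.5 CPM and CK666 libraries to 33.6, 33.4 and 32.7 CPM. All 11 windows were below 0 on the log2 scale in MSCs, with a median of −1.15, and 6 were called lower, the only BMP windows called in that comparison. NIH3T3 controls summed to 74.0, 62.6 and 77.5 CPM and CK666 libraries to 35.8, 46.2 and 41.8 CPM, with 10 of 11 windows below 0 and a median of −0.70. Most of each NIH3T3 sum, and most of the fall between its groups, came from a single narrow window at the near edge, described below. The groups did not overlap in either cell type, and in NIH3T3 this held without replicate 1 of the treated libraries, which is the 35.8. In NIH3T3 edgeR and DESeq2 each called 0 of the 11 windows, and 6 had an unadjusted p under 0.05. The other 116 Bmpr1b windows summed to 94.0 CPM in MSC controls and 86.1 with CK666, and to 137 and 135 in NIH3T3.
The largest loss at any BMP gene was in chr3:142232847-142234256, with 3.74, 3.61 and 3.65 CPM in MSC controls and 0.427, 0.785 and 0.736 with CK666. This is a 5.59-fold fall (−2.48 ± 0.25, adjusted p = 4.51e-13). In NIH3T3 the same window went from 3.25, 2.78 and 2.21 CPM to 1.26, 1.88 and 1.34 (−0.84 ± 0.24, adjusted p = 0.0122), below its controls in every library but under the fold limit and not past the p limit.
The effect of CK666 differed between the cell types by −1.62 ± 0.36 on the log2 scale (interaction, adjusted p = 0.00235). The neighboring chr3:142230378-142232633, which holds the second sequence shown, fell from 5.48, 5.81 and 5.72 CPM to 0.924, 1.38 and 1.57 in MSCs (−2.13 ± 0.19, adjusted p = 6.3e-15). In NIH3T3 it went from 3.53, 3.46 and 4.95 to 2.46, 1.84 and 2.01 CPM (−0.91 ± 0.21, adjusted p = 0.00123). The difference was −1.18 ± 0.30 (interaction, adjusted p = 0.00796).
These were the 2 of 355 BMP windows with a called interaction, 0.563% against 1.4% of all windows, and scaling by library totals gave 5. Leaving out 1 library gave 0 (without MSC CK666 replicate 1), 1 (without MSC control replicate 2 or 3) or 4 (without NIH3T3 control replicate 3). With DESeq2's size factors the split was 1 higher and 1 lower. The first call ended without MSC CK666 replicate 1, NIH3T3 CK666 replicate 2 or NIH3T3 control replicate 3 (−1.48 to −1.35). The second ended without any of 9 libraries, namely MSC CK666 replicates 1 and 2, the 3 MSC controls, NIH3T3 CK666 replicates 1 and 3 and NIH3T3 control replicates 1 and 2 (−1.23 to −0.999), and also with DESeq2's size factors, without the filter on low counts and with a replicate block. Without replicate 1 of NIH3T3 with CK666 the second was −1.05 (adjusted p = 0.03).
The other 4 called windows in MSCs were chr3:142234626-142236607 (−1.46 ± 0.19), chr3:142221247-142222325 (−1.27 ± 0.29), chr3:142226949-142228413 (−1.24 ± 0.19) and chr3:142228523-142230183 (−1.11 ± 0.15). The call at 142221247 ended without CK666 replicate 2 or 3 or control replicate 3 (−1.22 to −1.10), and that at 142228523 without control replicate 3 (−0.998).

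**Figure D3:**
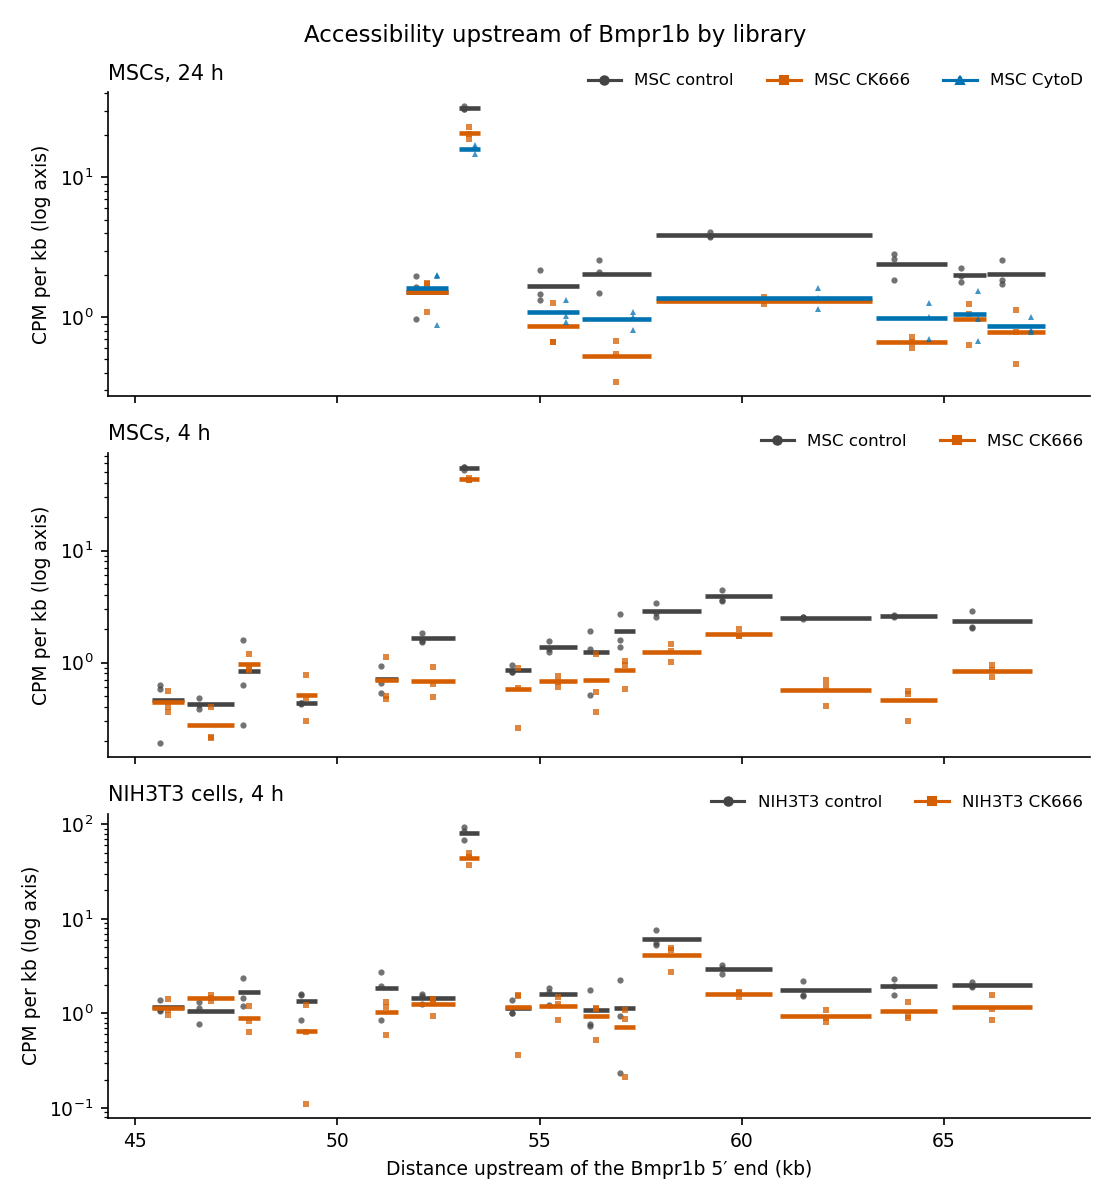
Level of each window upstream of the Bmpr1b 5′ end in CPM per kb on a log axis, against distance in kb, with a bar for the mean of 3 libraries over the window's length and a point for each library. From about 56 to 67 kb the treated bars lie below the control bars in MSCs at 24 h and 4 h and in NIH3T3, with the widest gap in MSCs at 4 h, where 2 windows fell by 2.48 and 2.13 on the log2 scale.

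Beside this stretch stands its neighbor Pdlim5 (chr3:142239590-142395696), which codes for a PDZ and LIM domain protein of the actin cytoskeleton. Of the windows nearest to Pdlim5, 20 of 104 were lower and 0 higher with CK666 at 4 h in MSCs, and 7 of the 19 within 40 kb of its 3′ end were lower. In that comparison 6 of 95 Bmpr1b windows and 0.427% of all windows were lower, so losses were also found on the Pdlim5 side of the stretch. In NIH3T3 5 of 113 were lower and 0 higher, with CK666 at 24 h 4 were higher and 2 lower of 87, and with CytoD 2 were higher and 0 lower. Over all windows 1.67% were lower in NIH3T3, 1.88% higher and 1.06% lower with CK666 at 24 h, and 0.98% and 1.4% with CytoD. The window over the outermost Pdlim5 start changed by 0.05 and 0.12 on the log2 scale with CK666 and CytoD at 24 h, by −0.11 in MSCs at 4 h and by −0.38 in NIH3T3, none of them called. The part of Pdlim5 in the loss upstream of Bmpr1b was not tested.
At the near edge of this region, outside the stretch of 24 h and inside that of 4 h, the narrow window chr3:142222427-142222945 had 16.1, 16.9 and 16.1 CPM in controls, 11.9, 10.6 and 9.85 with CK666 and 8.85, 7.66 and 8.43 with CytoD. Its log2 change was −0.60 with CK666 (adjusted p = 9.33e-05) and −0.98 with CytoD (adjusted p = 3.58e-09), under the fold limit in both. At 4 h it was at 28.5, 28.3 and 26.7 CPM in MSC controls against 21.8, 21.8 and 22.7 with CK666, and at 43.2, 34.5 and 47.1 in NIH3T3 controls against 19.0, 25.5 and 22.8. Here the log2 change was larger in NIH3T3 (−0.87) than in MSCs (−0.34), with an interaction of 0.55 (adjusted p = 0.0179) that was not called.

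In the opposite direction, the Bmpr1b window chr3:142186427-142186962, 17.002 kb upstream and the last of the sequences shown, opened with CytoD. It had 4.76, 4.68 and 4.62 CPM in controls, 5.85, 5.11 and 6.30 with CK666 and 10.3, 11.5 and 10.7 with CytoD. The gain with CytoD was 2.31-fold (1.21 ± 0.16, adjusted p = 4.45e-09), and CK666 differed from CytoD by −0.92 (adjusted p = 2.08e-06). At 4 h in NIH3T3 it rose with CK666 from 2.81, 2.23 and 1.78 CPM to 4.00, 6.01 and 4.17 (1.09 ± 0.20, adjusted p = 4.74e-05), a call that ended without CK666 replicate 2 or control replicate 3 (0.85 to 0.92). MSCs at 4 h gave 0.19, and the interaction of −0.87 had an adjusted p of 0.0534. A pair of adjacent intron windows 9.28 and 9.86 kb inside the gene also rose in NIH3T3 from low levels. The window from chr3:142158776 went from 0.522, 0.388 and 0.605 CPM to 1.26, 1.67 and 1.68 (1.64 ± 0.36), and lost its call without control replicate 2 (1.45). The window from chr3:142159361 went from 0.883, 0.614 and 0.854 to 1.998, 1.63 and 1.56 CPM (1.16 ± 0.31), and lost its call when any 1 of the 6 libraries was left out (0.99 to 1.22), with DESeq2 and without the filter on low counts.

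Among the ligands, Bmp4 (ENSMUSG00000021835, chr14:46383520-46390669, minus strand), an inducer of mesodermal and skeletal lineages, had calls at 3 of its 11 windows with CytoD and at 2 with CK666. The window chr14:46436386-46437106, 45.7 kb upstream and within the noncoding gene Gm15221, was lower with both. Controls had 6.93, 8.96 and 7.95 CPM, CK666 libraries 3.89, 2.81 and 3.55 and CytoD libraries 3.63, 3.47 and 2.61. The falls were 2.34-fold (−1.23 ± 0.18, adjusted p = 2.59e-07) and 2.49-fold (−1.32 ± 0.19, adjusted p = 1.4e-07), and the inhibitors differed from each other by 0.09 (adjusted p = 0.837).
Farther out, 88.017 kb upstream, chr14:46478686-46479206 fell with CytoD. Its levels were 7.98, 7.90 and 10.1 CPM in controls, 9.28, 8.49 and 9.96 with CK666 and 2.88, 3.34 and 3.20 with CytoD. CytoD lowered it 2.76-fold (−1.46 ± 0.17, adjusted p = 2.17e-10), CK666 changed it by 0.09 (adjusted p = 0.803), and the direct difference was 1.55 ± 0.17 (adjusted p = 1.03e-11).
The same order held at chr14:46408257-46408792, 17.6 kb upstream, with 7.21, 9.14 and 9.87 CPM in controls, 11.5, 9.33 and 9.06 with CK666 and 4.73, 4.71 and 4.09 with CytoD. The direct difference was 1.15 ± 0.16 (adjusted p = 2.36e-08), while the change with CytoD against control, −0.97 on the log2 scale, stayed under the fold limit. The CytoD libraries lay below all others in both windows.
The 2 Bmp4 windows that rose started from few counts. At chr14:46421890-46422927 controls had 1.40, 0.873 and 0.771 CPM and CytoD libraries 2.47, 2.55 and 3.05 (1.45 ± 0.33, adjusted p = 0.00097), and the call ended without control replicate 2 or 3 or CytoD replicate 3 (1.27 to 1.34). At chr14:46434773-46435284 controls had 2 to 6 counts, 0.140, 0.276 and 0.193 CPM, against 1.87, 1.31 and 0.583 with CK666 (2.55 ± 0.61, adjusted p = 0.00193) and 0.274, 0.262 and 0.197 with CytoD. CK666 was higher than CytoD by 2.35 ± 0.62 (adjusted p = 0.00452). The CK666 call ended without CK666 replicate 1 or 2 or control replicate 3 (2.14 to 2.51), and the direct one without CK666 replicate 1 or 2 or any CytoD replicate (1.96 to 2.45) or with a replicate block, and DESeq2 gave the window no adjusted p with CK666. Summed over its 11 windows, Bmp4 had 55.7 ± 6.01 CPM in controls, 53.1 ± 4.30 with CK666 and 40.0 ± 0.338 with CytoD (n = 3), and every CytoD library lay below every other. In the 4 h libraries Bmp4 had no call with CK666 by edgeR or DESeq2, with 6 of 12 windows at an unadjusted p under 0.05 in MSCs and 0 of 9 in NIH3T3.

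Bmp6 (ENSMUSG00000039004, chr13:38345107-38500302, plus strand), known as a regulator of hepcidin and an osteogenic ligand, had a single CytoD call at 24 h. The intron window chr13:38422414-38422987 had 7.21, 10.4 and 10.02 CPM in controls, 7.72, 12.4 and 9.64 with CK666 and 3.98, 3.34 and 4.34 with CytoD. It fell 2.38-fold with CytoD (−1.25 ± 0.17, adjusted p = 2.72e-08) and was higher with CK666 than with CytoD by 1.35 ± 0.17 (adjusted p = 1.4e-09). In the first intron, chr13:38349645-38351647 had 3.36, 4.00 and 5.25 CPM in controls, 6.51, 6.19 and 7.20 with CK666 and 3.15, 2.49 and 3.65 with CytoD. The inhibitors differed by 1.08 ± 0.20 (adjusted p = 1.82e-05), a call that ended without CytoD replicate 2 (0.96). The Bmp6 window with the most counts away from the start, chr13:38410259-38410934, was below its controls with CK666 (11.3, 11.99 and 13.97 against 7.62, 7.50 and 6.88 CPM, −0.76, adjusted p = 9.48e-06) and under the fold limit. By edgeR and DESeq2 no Bmp6 window was called with CK666 at 24 h, with 7 of 22 at an unadjusted p under 0.05.
At 4 h in NIH3T3 the Bmp6 intron window chr13:38398531-38399086 rose from 0.883, 0.969 and 1.21 CPM to 2.40, 2.86 and 2.42 (2.54-fold, 1.34 ± 0.26, adjusted p = 0.000129). In MSCs it went from 5.17, 3.72 and 3.99 to 6.19, 6.63 and 5.42 CPM, a change of 0.50 (adjusted p = 0.0194) that was not called, and the interaction was −0.82 (adjusted p = 0.0895). The window from chr13:38448193 rose in NIH3T3 from 2 to 7 counts (0.0803, 0.129 and 0.249 CPM) to 0.514, 0.776 and 0.931 CPM (2.27 ± 0.60, adjusted p = 0.00542). That call ended without CK666 replicate 2 or 3 or any control (1.97 to 2.75) and with DESeq2.

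At Bmp2 (ENSMUSG00000027358, chr2:133552159-133562885, plus strand), a ligand sufficient to start bone formation, no window was called with CytoD by edgeR or DESeq2, and 11 of 44 had an unadjusted p under 0.05. Over all windows 67771 of 300323 had such a p with CytoD. The median log2 fold change was 0.59 over the Bmp2 windows, against 0.04 over all windows, with 8 of 44 below 0 against 47.0% of all windows.  The sum over the 45 windows was 83.2 ± 0.708 CPM in controls, 82.6 ± 4.43 with CK666 and 89.4 ± 2.19 with CytoD (n = 3), and the CytoD libraries (87.0, 89.8 and 91.3 CPM) lay above the controls but not above CK666 replicate 1 (87.6). With library totals only, the median log2 fold change over all windows with CytoD was 0.12.
The strongest Bmp2 window went the other way. chr2:133467353-133468378, 83.8 kb upstream, had 20.02, 21.8 and 19.9 CPM in controls, 24.0, 17.5 and 23.2 with CK666 and 14.5, 17.01 and 13.5 with CytoD (−0.46, adjusted p = 0.00165, under the fold limit). In NIH3T3 at 4 h it rose with CK666 from 1.81, 1.23 and 1.89 CPM to 3.54, 2.98 and 3.46 (1.05 ± 0.23, adjusted p = 0.000553). MSCs at 4 h had 17.2, 18.3 and 16.5 against 18.9, 17.97 and 18.9 CPM, a change of 0.09, and the interaction of −0.93 (adjusted p = 0.00432) was under the fold limit. The NIH3T3 call ended without CK666 replicate 1 (0.996, adjusted p = 0.00203) or control replicate 2 (0.85, adjusted p = 0.02).
With CK666 at 24 h the one called Bmp2 window, chr2:133513563-133514094, rested on 2 to 7 counts in controls. It had 0.140, 0.0919 and 0.337 CPM there, 0.858, 1.41 and 0.635 with CK666 (2.29 ± 0.62, adjusted p = 0.00718) and 0.617, 1.31 and 0.394 with CytoD (1.94, adjusted p = 0.0381). The call ended without CK666 replicate 1 or 2, control replicate 1 or 2 or CytoD replicate 2 (1.90 to 2.35) or with a replicate block, and DESeq2 gave the window no adjusted p. A pair of windows was lower with CK666 than with CytoD. In chr2:133472728-133473754 the CK666 libraries had 0.605, 1.08 and 1.17 CPM and the CytoD libraries 2.47, 2.62 and 2.02 (−1.31 ± 0.34), and in chr2:133521052-133521810 they had 1.16, 1.5003 and 1.43 against 2.81, 3.80 and 2.46 (−1.14 ± 0.29). The first call ended without CK666 replicate 1 or 2 or CytoD replicate 1 or 2 (−1.40 to −1.06) or with DESeq2, and the second without any CK666 replicate or CytoD replicate 2 (−1.20 to −0.93).

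**Figure D4:**
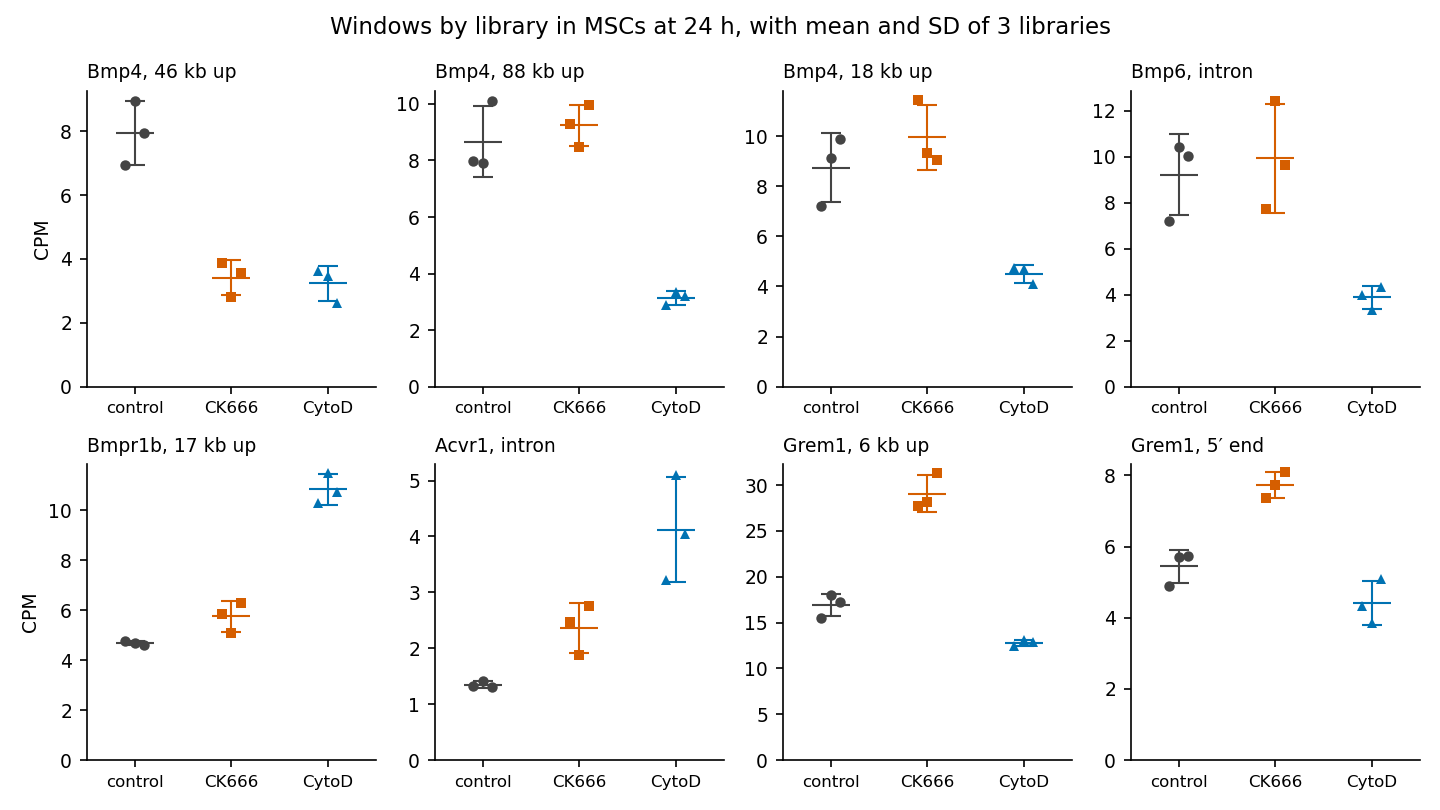
Level of 8 windows in each MSC library at 24 h in CPM, with a bar for the mean and whiskers for the SD of 3 libraries. CytoD libraries lie below control and CK666 libraries at Bmp4 (88 and 18 kb upstream) and Bmp6, above them at Bmpr1b (17 kb upstream) and Acvr1, and at Grem1 CK666 libraries lie above both other groups.

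Among the other receptors, Bmpr1a (ENSMUSG00000021796, chr14:34410734-34503341, minus strand), the type I receptor used by Bmp2 and Bmp4, had no called window in any treatment comparison by edgeR or DESeq2. The numbers with an unadjusted p under 0.05 were 11 and 7 of 42 with CK666 and CytoD at 24 h, 8 of 42 between them, 8 of 34 in MSCs at 4 h and 3 of 29 in NIH3T3. Its strongest window away from the start, chr14:34508083-34508615, 4.74 kb upstream, was nevertheless below its controls with both inhibitors at 24 h. It had 23.2, 33.1 and 32.6 CPM in controls, 17.6, 17.7 and 15.9 with CK666 and 14.9, 19.2 and 16.9 with CytoD, with log2 changes of −0.81 (adjusted p = 3.27e-09) and −0.81 (adjusted p = 6.9e-09), under the fold limit. At the Bmpr1a start itself CK666 at 4 h in MSCs gave −0.32 (adjusted p = 0.00383), from 20.2, 22.2 and 20.99 to 18.2, 17.1 and 15.7 CPM.
Acvr1 (ENSMUSG00000026836, chr2:58388644-58567157, minus strand), the type I receptor also called ALK2, had the highest summed level of the 10 genes, 248 CPM in 24 h controls, 247 with CK666 and 245 with CytoD. The intron window chr2:58521569-58522139, 5.30 kb upstream of an internal start, rose with CytoD from 1.33, 1.42 and 1.30 CPM to 3.22, 5.10 and 4.04 (3.04-fold, 1.60 ± 0.27, adjusted p = 4.07e-06). CK666 libraries were between the groups with 2.47, 1.88 and 2.75 CPM (0.80, adjusted p = 0.052), and all 3 groups were separate from each other.
A nearby intron window, chr2:58518495-58519060, had 0.630, 0.551 and 0.337 CPM in controls and 0.823, 1.83 and 2.12 with CytoD (1.68 ± 0.43, adjusted p = 0.00436), and lost its call without control replicate 2 or 3 or CytoD replicate 2 or 3 (1.39 to 1.76) and with DESeq2. In NIH3T3 at 4 h the Acvr1 intron window chr2:58524900-58525462 fell from 2.25, 2.36 and 2.53 CPM to 1.199, 0.980 and 0.856 (−1.23 ± 0.27, adjusted p = 0.000732), with the call lost without CK666 replicate 3 (−1.13). In MSCs that window had at most 11 counts and was not tested alone.
Bmpr2 (ENSMUSG00000067336, chr1:59763400-59879014, plus strand), the type II receptor mutated in heritable pulmonary hypertension, had 1 call with CK666 at 24 h and 1 in NIH3T3. The intron window chr1:59797769-59798492 had 1.47, 2.07 and 2.02 CPM in controls, 0.605, 0.703 and 0.741 with CK666 (−1.44 ± 0.37, adjusted p = 0.00351) and 1.51, 1.44 and 1.03 with CytoD. Leaving out any CK666 replicate or control replicate 2 or 3 ended the call (−1.53 to −1.38). In NIH3T3 the window from chr1:59735643, 26.8 kb upstream, rose from 8 to 12 counts (0.321, 0.388 and 0.427 CPM) to 1.43, 0.858 and 1.15 CPM (1.59 ± 0.43, adjusted p = 0.00653). The call ended without CK666 replicate 1 (1.41, adjusted p = 0.0373) or 3 or any control (1.41 to 1.65) and with DESeq2. The Bmpr2 window with the most counts away from the start differed between the times, since at 4 h it was chr1:59833645-59834189, 70.2 kb downstream in an intron. It had 4.46, 2.49 and 2.41 CPM in MSC controls and 5.69, 5.78 and 3.91 with CK666 (0.71 ± 0.17, adjusted p = 0.00349, under the fold limit), and 10.1, 11.3 and 10.6 in NIH3T3 controls.

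Of the antagonists, Grem1 (ENSMUSG00000074934, chr2:113746164-113758646, minus strand), which binds Bmp2 and Bmp4, had 3 windows higher with CK666 than with CytoD. The window chr2:113764185-113765450, 5.54 kb upstream, had 15.5, 17.96 and 17.2 CPM in controls, 27.8, 28.1 and 31.4 with CK666 and 12.4, 13.1 and 12.9 with CytoD. CK666 and CytoD differed 2.27-fold (1.18 ± 0.10, adjusted p = 5.46e-16). Against control neither passed the fold limit, with 0.78 for CK666 (adjusted p = 1.59e-09) and −0.41 for CytoD (adjusted p = 0.00504), although the 3 groups did not overlap.
The start of Grem1 followed the same order, with 4.90, 5.70 and 5.73 CPM in controls, 7.37, 7.74 and 8.10 with CK666 and 4.32, 3.86 and 5.07 with CytoD. Its direct difference was 0.80 ± 0.17 (adjusted p = 0.000307), under the fold limit, and the change with CK666 was 0.50 ± 0.16 (adjusted p = 0.0357). This was the largest change with CK666 at 24 h among the TSS windows of the 10 genes, which is why the TSS windows most like it over the 9 libraries are given. They belong to Spin4 (Pearson r of log2 CPM 0.984), Ccdc86 (0.975) and Gpc6 (0.969), of 12340 TSS windows compared, and the 9 points share 3 treatment groups.
The other two were closer to the limits. The window chr2:113765675-113766929 had 4.39, 3.56 and 4.82 against 1.58, 2.36 and 2.22 CPM (1.04 ± 0.24), a call that ended without CK666 replicate 3 or CytoD replicate 1 (0.90 to 0.94) and under both other scalings. The window chr2:113723830-113724439, 34.2 kb downstream, had 2.93, 3.00 and 2.54 against 0.823, 0.785 and 1.82 CPM (1.25 ± 0.31), and its call ended without CK666 replicate 1 or 2 or CytoD replicate 1 or 2 (1.05 to 1.23). Against control, edgeR and DESeq2 called 0 of 31 Grem1 windows with CK666 and 0 with CytoD, with 13 and 9 at an unadjusted p under 0.05. Summed over its 31 windows Grem1 had 108 ± 3.80 CPM in controls, 119 ± 3.01 with CK666 and 95.0 ± 5.95 with CytoD (n = 3), and the 3 groups did not overlap.
At 4 h the upstream window, now chr2:113764298-113766853, was above its controls in NIH3T3 with CK666. NIH3T3 went from 11.004, 11.045 and 11.072 CPM to 17.1, 18.3 and 17.2 (0.69 ± 0.13, adjusted p = 7.64e-05), and MSCs from 32.8, 32.3 and 34.0 to 35.0, 35.0 and 34.9 (0.08, adjusted p = 0.564). The interaction of −0.58 had an adjusted p of 0.00805, with all of these under the fold limit. The one Grem1 window called in NIH3T3, chr2:113738861-113739512, rose from 4 to 10 counts (0.161, 0.194 and 0.356 CPM) to 0.742, 0.817 and 1.08 CPM (1.90 ± 0.52, adjusted p = 0.00742). That call ended without CK666 replicate 2 or 3 or any control (1.68 to 2.28), with DESeq2 and with a replicate block.

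Nog (ENSMUSG00000048616, chr11:89300638-89302332, minus strand) codes for noggin, which binds BMP ligands and blocks their receptor sites. Downstream of it, chr11:89206584-89207279, 95.1 kb away, had 4.97, 3.86 and 2.84 CPM in controls and 1.67, 1.88 and 1.64 with CK666 (−1.15 ± 0.25, adjusted p = 0.000616), with 2.26, 2.94 and 2.22 with CytoD. The call ended without control replicate 1 (−0.97, adjusted p = 0.0140). The window chr11:89228116-89228694 rose with CytoD from 3.15, 4.27 and 3.52 CPM to 6.31, 6.41 and 9.71 (1.04 ± 0.19, adjusted p = 3.1e-05) while CK666 libraries, with 4.59, 3.24 and 3.71 CPM, overlapped with the controls. That call ended without control replicate 1 or 3 or CytoD replicate 3 (0.77 to 0.98). In NIH3T3 at 4 h chr11:89239846-89240397 fell from 2.33, 2.16 and 2.21 CPM to 0.742, 0.654 and 1.27 (2.42-fold, −1.28 ± 0.29, adjusted p = 0.000933). In MSCs the same window had 0.261 to 0.717 CPM in controls and changed by −0.76 (adjusted p = 0.472).
Chrd (ENSMUSG00000006958, chr16:20733127-20742384, plus strand) codes for chordin, another secreted ligand trap. It had 2 windows in each table, which overlap its neighbor Thpo, and by edgeR and DESeq2 neither was called with any treatment, with 0 of 2 at an unadjusted p under 0.05 against control in each of the 4 treatments and 1 of 2 between the inhibitors at 24 h. Its TSS window had 8.12, 9.14 and 9.05 CPM in 24 h controls, 9.94, 8.44 and 9.11 with CK666 and 7.75, 6.41 and 7.54 with CytoD, so that the CytoD libraries lay below the others (−0.28, adjusted p = 0.234 against control).

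CK666 was measured in MSCs at 24 h and at 4 h in separate libraries, so the times can be set side by side. Of 209 pairs of overlapping BMP windows tested at both times, 145 had the same sign (69.4%), and Pearson's r of the log2 fold changes was 0.603 across windows. Without Bmpr1b 170 pairs remained, with 68.2% of the same sign and r = 0.471. Over all windows there were 242047 overlapping pairs, of which 61.3% had the same sign, with r = 0.385. Windows are not independent replicates, and neighboring windows share libraries and base composition.

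Untreated MSCs and NIH3T3 cells differed at more windows than treated and control cells did. Of 355 BMP windows, 60 were higher in MSCs and 49 lower, or 30.7%, against 34.5% of all windows, 18.3% higher and 16.2% lower. The split was 45 higher and 77 lower with the GC trend removed, 46 and 68 with library totals only, and 59 and 59 when the fit held the control libraries alone. Over all windows the median log2 difference was −0.02, and it was −0.24 and −0.25 under the first 2 of these. The cell types also differ in source, as primary cells and a line, so that cell type and source cannot be told apart.
The ligand Bmp4 was the most one-sided gene, with 8 of its 13 windows higher in MSCs and 0 lower by edgeR and by DESeq2 (11 at an unadjusted p under 0.05). Its UTR window chr14:46387178-46387696 had 16.4, 15.4 and 13.3 CPM in MSC controls and 0.120, 0.0969 and 0.285 in NIH3T3 controls, the latter 3 to 8 counts (6.45 ± 0.25, adjusted p = 1.81e-38). The intron window from chr14:46387757 had 1.80 ± 0.454 against 0.101 ± 0.0882 CPM, and that from chr14:46444097, the fourth sequence shown, 3.92 ± 0.536 against 0.0549 ± 0.0667 CPM (mean ± SD, n = 3), with at most 5 and 4 counts in NIH3T3.
Bmp2 had 6 windows higher and 1 lower of 33. Its start was at 3.96, 3.65 and 4.21 CPM in MSCs and 1.08, 1.19 and 0.819 in NIH3T3 (3.80-fold, 1.92 ± 0.23, adjusted p = 1.62e-11). The far upstream window chr2:133460752-133461268, the fifth sequence shown, was at 9.25, 10.6 and 9.22 CPM against 0.602, 0.388 and 0.392 (4.40 ± 0.22, adjusted p = 3.1e-30). With CK666 it went to 5.79, 6.03 and 4.81 CPM in MSCs (−0.81 ± 0.12, adjusted p = 3.55e-07, under the fold limit). The strongest one, from chr2:133467358, was at 17.3 ± 0.927 against 1.64 ± 0.360 CPM (3.41 ± 0.15). Bmp6 had 9 higher and 2 lower of 36, led by the intron window from chr13:38454218 (3.63 ± 0.32).
Of the receptors, Acvr1 had 11 higher and 1 lower of 29, and Bmpr1a 11 higher and 1 lower of 35. The Acvr1 intron window chr2:58561616-58562659 had 58.3, 58.8 and 53.2 CPM in MSCs and 6.79, 7.14 and 8.58 in NIH3T3 (7.56-fold, 2.92 ± 0.11, adjusted p = 5.49e-38), and that from chr2:58513047 21.9 ± 2.18 against 2.11 ± 0.128 CPM (3.37 ± 0.15). At Bmpr1a the intron window from chr14:34445197 had 1.26 ± 0.168 against 0.0720 ± 0.0079 CPM (2 counts in each NIH3T3 library), and the upstream window from chr14:34508079 36.9 ± 1.16 against 11.6 ± 1.11 CPM (1.67 ± 0.11). The Acvr1 window from chr2:58524900 went the other way (0.188 ± 0.164 against 2.38 ± 0.141 CPM, −3.63 ± 0.44).
Bmpr1b was lower in MSCs at 30 of 127 windows and higher at 2, led by the coding exon window from chr3:141857097 (0.475 ± 0.111 against 4.91 ± 1.13 CPM, −3.35 ± 0.27). Its starts did not differ by the call limits, with 0.884 against 0.625 CPM per kb at the outermost one and 1.16 against 1.65 at the internal one from chr3:141931279. The other internal start, from chr3:141981919, was at 0.389 against 1.24 CPM per kb, a log2 difference of −1.66 beyond the fold limit and not past the p limit (adjusted p = 0.0123). In the upstream stretch, MSC and NIH3T3 controls were closer, with 1 of 11 windows called and a median of 0.17. Bmpr2 had 2 higher and 1 lower of 18.
Of the antagonists, Nog had 9 lower and 1 higher of 31. The windows chr11:89297310-89297996 and chr11:89298097-89298652, 4.34 and 3.68 kb downstream of its start, had 0.788 ± 0.0741 against 8.38 ± 0.493 CPM (−3.40 ± 0.21) and 0.940 ± 0.269 against 8.56 ± 1.18 CPM (−3.18 ± 0.21), while its start was at 3.73 ± 0.783 in MSCs and 1.91 ± 0.994 in NIH3T3 (0.94 ± 0.23, under the fold limit). Farther up, the window from chr11:89328619 gave −2.95 ± 0.70 with 0 to 6 counts in MSCs. Grem1 had 10 higher and 3 lower of 31, with its start at 4.23, 4.21 and 3.57 CPM against 1.08, 0.872 and 1.03 (4.03-fold, 2.01 ± 0.23, adjusted p = 1.59e-12). The downstream window from chr2:113723884 gave 3.44 ± 0.45, and the intron window from chr2:113754783 was lower in MSCs (0.488 ± 0.174 against 3.62 ± 0.193 CPM, −2.88 ± 0.29). Chrd had 1 of 2 windows lower.
Larger regions can differ between cell types as well. The median log2 difference over windows within 1 Mb of each gene was 0.66 around Bmp4 (1.65 over its own windows), −0.39 around Bmp2 (0.46), 0.47 around Bmp6 (0.53), 0.30 around Bmpr1a (0.87), 0.11 around Acvr1 (0.75), −0.34 around Bmpr1b (−0.71), −0.18 around Bmpr2 (−0.32), −0.44 around Nog (−1.22), 0.24 around Grem1 (0.50) and 0.14 around Chrd (−0.73). A gene copy number that differs between the line and the mouse cannot be told apart from accessibility in these counts.

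**Figure D5:**
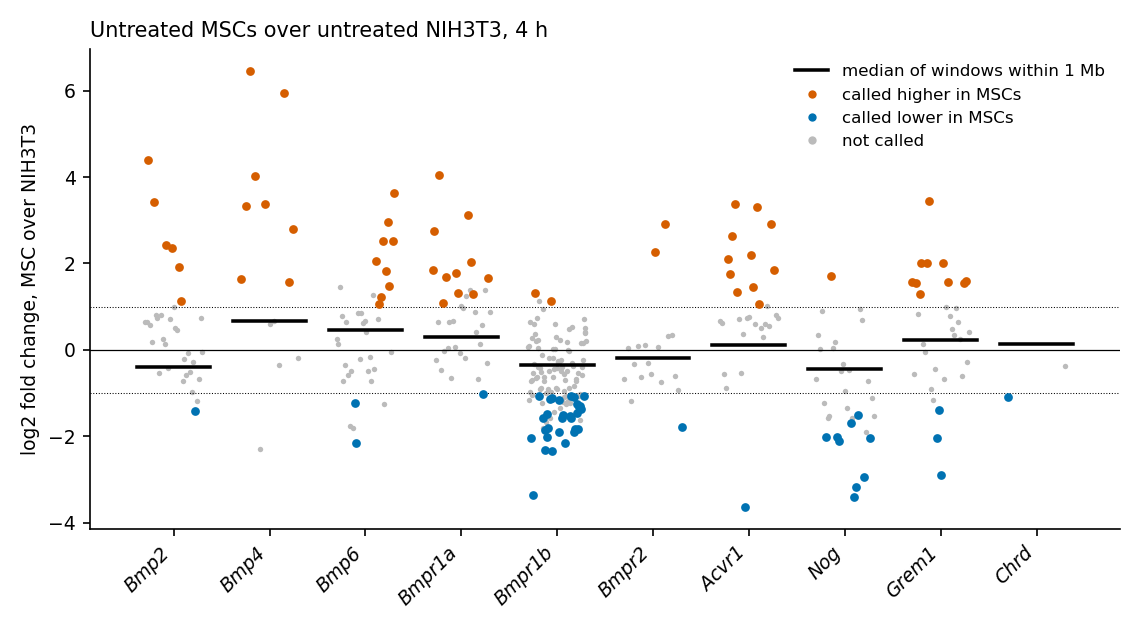
Each point is 1 window, placed by gene and position on the x axis and by the log2 fold change of 3 MSC controls over 3 NIH3T3 controls at 4 h on the y axis, with colored points called and a bar for the median of windows within 1 Mb of the gene. The 8 called Bmp4 windows are all above 0, and 30 of the 32 called Bmpr1b windows are below 0.

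A list of 55 other genes of the pathway gave the setting. With CK666 at 24 h 24 of their 1224 tested windows were higher and 19 lower (3.51%, against 2.94% of all windows), and with CytoD 7 and 19 (2.12% against 2.38%). At 4 h the counts were 4 and 11 of 1167 in MSCs (1.29% against 1.02%) and 16 and 14 of 1169 in NIH3T3 (2.57% against 3.54%). Between MSC and NIH3T3 controls 356 were higher and 229 lower of 1325 (44.2% against 34.5%). The antagonists had 10 higher and 10 lower of 271 with CK666 at 24 h (7.38% against 2.94%), and 1 and 9 with CytoD (3.69% against 2.38%).
Of these, Fstl1, a secreted follistatin-like glycoprotein, had 7 windows lower and 1 higher with CK666 at 24 h, among them its TSS window (−1.02 ± 0.13) and a window 12.9 kb downstream (−1.10 ± 0.10), which was also lower with CytoD (−1.10 ± 0.10). All 9 antagonist windows called with CK666 at 4 h in MSCs belonged to Fstl1 (−1.18 to −2.05). They were 2.83% of 318 tested antagonist windows, against 1.02% of all windows. Bmper, a BMP-binding endothelial regulator, had 5 higher and 1 lower with CK666 at 24 h and 4 lower with CytoD.
Among target genes, Hey1, a transcriptional repressor, had 5 windows higher with CK666 at 24 h (1.56 to 2.53), while homeobox genes had losses, Msx1 with −1.46 for CK666 and −1.63 for CytoD at other windows, and Msx2 with −1.11 and −1.45. The ligand Bmp5 had a window 98.0 kb from its start that was lower with both inhibitors (−1.65 and −1.24) and the receptor-regulated Smad9 one that rose with CK666 at 24 h (1.92) and at 4 h in MSCs (1.24). In NIH3T3 the co-receptor Rgma had 3 windows higher, Bmp5 3 lower, Gdf6 1 lower (−1.67), Smad1 1 higher (2.16) and Id2 1 lower (−1.32). The called shares of their lists in NIH3T3 were 3.55% for receptors and co-receptors, 2.26% for ligands, 1.71% for Smads and 2.25% for target genes. Over all windows the share was 3.54%. With CK666 at 24 h the target genes had 3.45% called, against 2.94% of all windows. Calls of single genes in these lists are a description.
The 100 kb limit fell between similar windows. Just inside it, the Bmpr1b window from chr3:141831078 was 99.9 kb from a start and had means of 5.32, 5.60 and 6.28 CPM in control, CK666 and CytoD libraries. Just outside, the Bmp4 window from chr14:46490912 was 100.243 kb away and had 3.46, 2.71 and 4.25 CPM. A further 89 windows at 24 h and 130 at 4 h were nearest to a start of these genes from beyond the limit.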

How the data were processed

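ATAC-seq libraries were made from MSCs and NIH3T3 cells by the Omni-ATAC method. Per the study's methods, the authors ran the PEPATAC pipeline with bowtie2 and MACS2, merged the peaks of all replicates into consensus windows and deposited raw counts of reads per window, with separate tables for the 24 h and the 4 h experiment. The build was mm10 per the submitters' processing notes, while versions and read filters were not given in the sources used here. Because the windows were called on these libraries, weakly open sites are missing from the tables, and the joined peaks differ in length between tables, so that levels of the tables were not compared.

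The deposited counts were tested with edgeR 4.0.16 (quasi-likelihood, TMM scaling, filterByExpr on low counts, R 4.3.3, limma 3.58.1, data.table version 1.17.8), with p-values adjusted by the Benjamini-Hochberg method over all windows tested. All 9 libraries of 24 h were fitted together, MSCs and NIH3T3 at 4 h apart with 6 libraries each, and the comparison of cell types and the interaction on all 12. Levels at 4 h are scaled over all 12 libraries. The fits were tested on simulated data. DESeq2 1.42.0, other scalings, no filter, a GC offset, a replicate block, other rules of assignment and leaving out each library were the alternatives. Other steps used Python 3.11.15, pandas 2.3.3, numpy 2.4.6 and matplotlib 3.10.9.

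Start sites were those of protein-coding transcripts in GENCODE vM21, and distance ran from the window's edge. The BMP genes, the other pathway genes and the marker lists were chosen with earlier results of these data known. Windows were named by a rule: the TSS window of each gene, every called window (the 15 largest gains and 15 largest losses where more than 30 were called), the window with the most counts away from the start, those just inside and outside 100 kb, and the 3 genes most like the TSS window that changed most. Of the 30 libraries, 9 with siRNA were not used here. Depth limits precision, since a window of few counts can pass the test only at a large fold.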

Additional observations from a re-analysis of the deposited data

Results flagged for a closer look

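The effect of CK666 at 4 h differed between the cell types at 2 windows upstream of Bmpr1b, by a test of the difference itself (the interaction term of edgeR over 12 libraries). At chr3:142232847-142234256 the log2 change in MSCs minus that in NIH3T3 was −1.62 (adjusted p = 0.00235), and at chr3:142230378-142232633 it was −1.18 (adjusted p = 0.00796). In both windows the 3 treated libraries lay below the 3 controls in either cell type, so the difference is one of size. Without NIH3T3 replicate 1 with CK666, the library that stood apart, the first difference was −1.68 (adjusted p = 0.00186) and the second −1.05 (adjusted p = 0.03). The first call was lost without any 1 of 3 other libraries (−1.48 to −1.35). The second was lost without any 1 of 9 of the 12 libraries (−1.23 to −0.999), with a replicate block, without the filter on low counts and with DESeq2's size factors.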

How the results depend on the processing

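With a limit of 50 kb the counts of called BMP windows fell to 4 with CK666 at 24 h, 6 with CytoD, 0 in MSCs at 4 h and 0 for the interaction, since the 4 called windows of the stretch upstream of Bmpr1b at 24 h and its 6 at 4 h lie beyond 50 kb, as do those of Nog at 89206584 (CK666) and 89228116 (CytoD) and of Bmp4 at 46478686 (CytoD). With 1 TSS per gene MSCs at 4 h had 11. In NIH3T3 the count was 6 with DESeq2 and 16 at an adjusted p under 0.05. The interaction count was 5 with library totals only, 1 without the filter on low counts and 1 with the replicate block. Leaving out 1 library gave 5 to 9 calls with CK666 at 24 h (5 without CK666 replicate 2), 8 to 13 with CytoD, 6 to 11 between the inhibitors (6 without CK666 replicate 2), 4 to 7 in MSCs at 4 h, 5 to 11 in NIH3T3 (5 without CK666 replicate 3 or control replicate 2), 93 to 117 between cell types and 0 to 4 for the interaction (0 without MSC CK666 replicate 1). An arm left with 2 libraries takes its spread from all groups of the fit. Other counts stayed within 1.5 times.

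Labels number the replicates, but same-numbered libraries did not deviate together (correlations of −0.0687 to 0.0267, against −0.0495 to 0.0524 for other pairs). No pairing by number was seen, although 3 libraries per group cannot exclude a weak one. With the replicate block the counts were 8, 12, 9, 6, 10, 104 and 1 in the order above, and it ended the calls of Bmp2 at 133513563, Bmp4 at 46434773 between the inhibitors, Grem1 at 113738861 in NIH3T3 and the interaction of Bmpr1b at 142230378.

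Of 49 calls with a treatment, where a window counts once for each comparison that called it, 21 stood under all alternatives run on single windows. A further 16 were lost only when a library was left out. The 49 include the direct comparison of the inhibitors and the interaction, and alternatives in which DESeq2 gave no adjusted p were skipped. Of the 81 calls followed, which add the named ones between cell types, 0 changed direction. Windows that were not called were not checked for this. With library totals the median of all windows was 0.15 in NIH3T3, −0.25 between cell types, −0.15 for the interaction, 0.12 with CytoD and −0.10 between the inhibitors. In the main fits these medians were 0.04, −0.02, −0.05, 0.04 and −0.03. Depth limited the gains from at most 12 counts in each control (Bmp2 at 133513563, Bmp4 at 46434773, Acvr1 at 58518495, Bmp6 at 38448193, Bmpr2 at 59735643 and Grem1 at 113738861), each of which lost its call without any 1 of 3 to 5 libraries.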
